A study of Mus musculus with 6 samples.

Results

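The cochleae of noise-exposed mice given dexamethasone were compared with those of noise-exposed mice given saline, 24 h after the injection, across the genes on 1 one-colour Agilent array of each group. Members were the genes whose probe was well above background on both arrays, which held for 22709 of the 37317 genes named on the arrays. The series has 6 arrays, 1 for each of 6 groups of female C57BL/6 mice aged 6 weeks. The dexamethasone group at 24 h was exposed to intense noise for 2 h and injected intraperitoneally with dexamethasone sodium triphosphate (the drug name as the labels give it) at 10 mg/kg right after the noise, and the saline group had the same noise and a saline injection. The other 4 groups were dexamethasone and saline sampled at 12 h, noise with no injection, and a baseline with neither. All groups but the baseline thus shared the noise, and both 24 h groups also shared an injection. Each group held 6 mice per the design text. The sources used here do not say whether their RNA was pooled for the array, and they give neither the time of day nor the sampling time of the noise-only group.

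Dexamethasone is a synthetic glucocorticoid. It binds the glucocorticoid receptor, a hormone-activated transcription factor present in most cells of the inner ear, which raises the transcription of genes such as Fkbp5, Tsc22d3 and Per1 and restrains many inflammatory genes. Glucocorticoids are given to patients for acute hearing loss, lower the numbers of circulating eosinophils and lymphocytes, promote fat storage, and can reset the circadian clocks of peripheral tissues. The cochlea holds sensory hair cells and their supporting cells, the spiral ganglion neurons, the stria vascularis and the spiral ligament, all inside bone that contains marrow.

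Levels below are log2 signals of 1 probe relative to the array's 75th percentile, so a level of 0 equals that percentile, and levels are comparable between arrays for 1 gene but not between genes. Differences are log2, dexamethasone minus saline. With 1 array per group no difference has a replicate check and no test was possible. The range given after a fold, called its spot-error range, spans 1.96 of the scanner software's own error estimates and covers neither mice nor dissections. The median spot error of a difference corresponded to a factor of 1.32 for that range, and the differences of all genes had a standard deviation of 0.42.

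The 6 arrays had 75th-percentile signals of 743 to 952 units and 63.0% to 70.3% of probes well above background, with 64.7% on the 24 h dexamethasone array and 63.0% on the 24 h saline array. Both 24 h arrays lay on the same slide as the baseline and noise-only arrays, and both 12 h arrays lay on another, so slide did not differ within the 24 h comparison. Of 28 hair cell genes, 24 were well above background on both 24 h arrays, and so were all 24 stria vascularis genes and 28 spiral ganglion neuron genes. Slc26a5 (prestin, the outer hair cell motor protein), Atoh1 and Tmc2 were not well above background on either 24 h array. Several genes that mark tissues other than the cochlea, such as pituitary and choroid plexus, also differed between the arrays by far more than the spot error. Summed over the list and in multiples of the 75th percentile, pituitary hormone genes reached 75.8 on the 24 h dexamethasone array and 1.30 on the 24 h saline array, and choroid plexus genes 72.7 and 35.4. A sum of this kind weighs bright probes most. In these lists, the 24 h dexamethasone and saline levels were 5.07 and -1.86 for Pomc, 5.22 and -0.91 for Prl, and 5.01 and 0.12 for Ttr. These lists are described with their values below, and their part in the other results was not tested.

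At 24 h, 718 genes (3.16% of those measured) were at least 2-fold apart, of which 371 (1.63%) were higher after dexamethasone and 347 (1.53%) were lower. Other genes were well above background on 1 of the arrays alone and had a bound of 2-fold or more, 260 on the higher and 278 on the lower side. The median difference of all genes was -0.00. Further measured probes existed for 159 of the 718 genes, and in 88.1% of these genes every further probe lay on the same side of 0. In whole tissue, fewer cells of a type and less RNA per cell cannot be told apart, and this holds for every group described here. The largest differences among brighter genes were found for Pomc, Prl, Ttr, Ddc and Th on the higher side and for Dbp, Myh7, Per2, Per3 and Slc4a11 on the lower side.

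**Figure D1:**
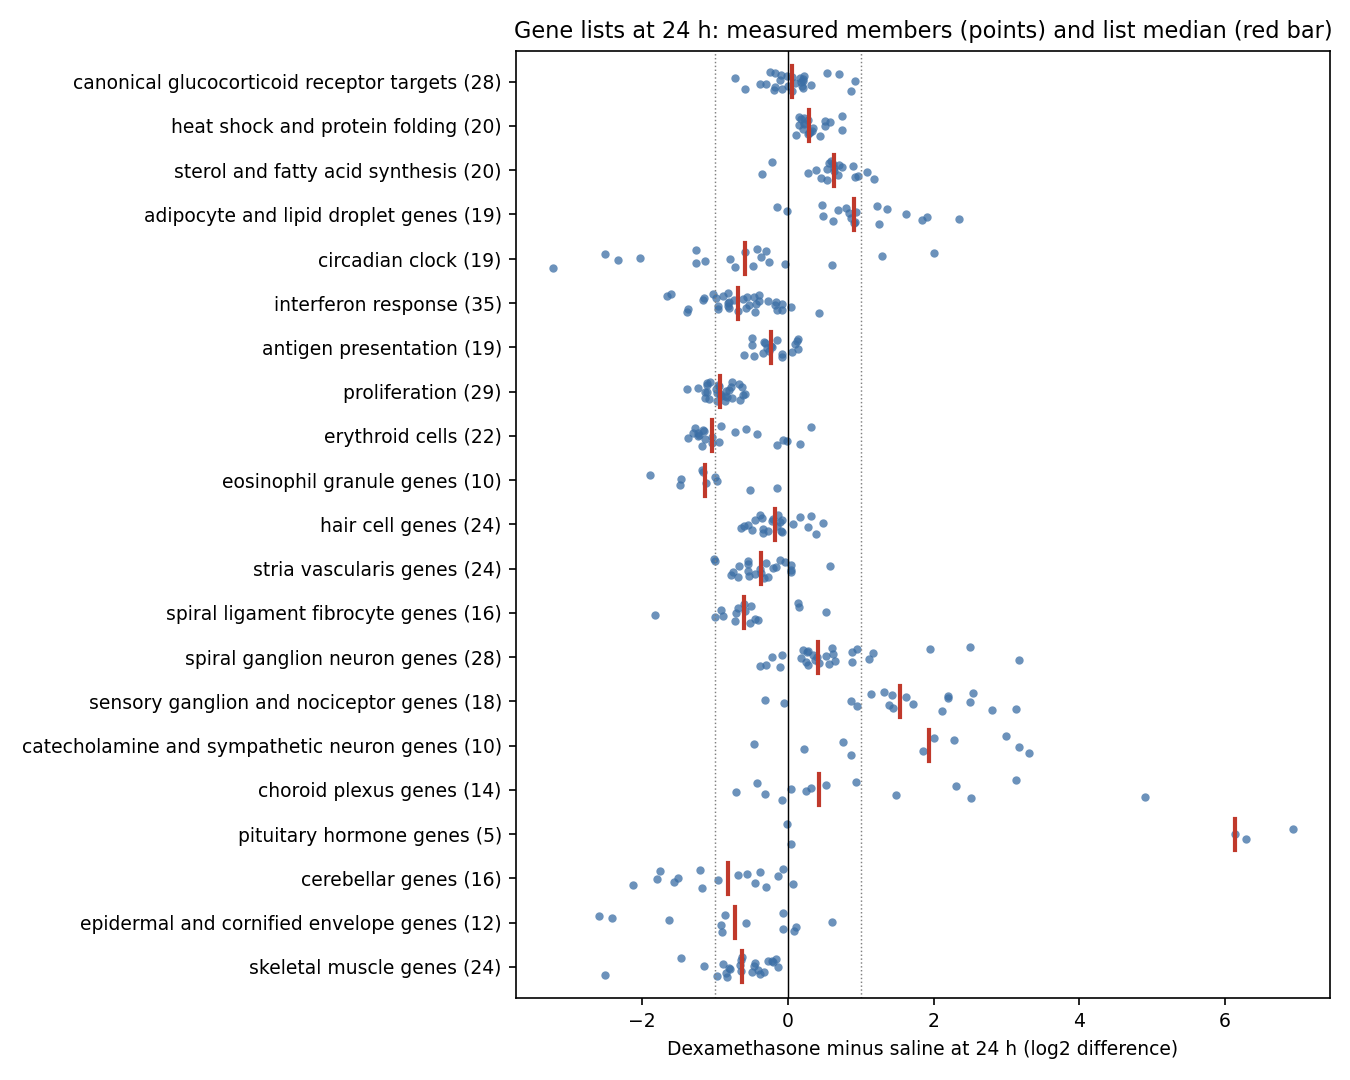
Log2 difference between the dexamethasone and saline arrays at 24 h (x axis) for the measured members (points, number in brackets) of 21 gene lists (y axis), with the list median as a red bar and dotted lines at a 2-fold difference. The 29 proliferation genes all lie below 0, the 20 heat shock genes all lie above 0, and the glucocorticoid receptor targets lie on both sides around a median of 0.05.

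Canonical glucocorticoid receptor targets had a median difference of 0.05 at 24 h after the injection, against 0.20 for the same genes at 12 h. All 28 listed targets were measured, and none was at least 2-fold apart (3.16% of all genes were). Above 0 were 15 (49.4% of all genes were), and 13 were below. Beyond the spot error, 4 were higher (8.7% of all genes were) and 2 were lower (9.5%). Fkbp5, a chaperone that dampens the receptor and one of its most responsive targets, had a level of 1.34 on the 24 h dexamethasone array and 1.42 on the 24 h saline array, with 1.31 and 0.95 on the 12 h dexamethasone and saline arrays, 0.40 after noise alone and 1.34 at baseline. The 24 h pair for Fkbp5 (probe at chr17:28536060-28536119 of mm9, minus strand) therefore differed by -0.08, inside the spot error. Tsc22d3, which encodes the anti-inflammatory protein GILZ, differed by -0.31, Zbtb16 by -0.10, Klf9 by 0.05 and Dusp1, a phosphatase that switches off MAP kinases, by 0.21, and for all 4 the spot-error range included equality. Sgk1, a kinase that controls sodium transport, had a level of 3.69 after dexamethasone and 3.38 after saline at 24 h, a difference of 0.31 that its spot-error range did not separate from 0.

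The targets with the largest differences on the higher side were Cdkn1a, the cell cycle inhibitor p21, at 1.89-fold (spot-error range 1.43 to 2.49), Angptl4, an inhibitor of lipoprotein lipase, at 1.82-fold (1.38 to 2.40), and Pdk4, a brake on glucose oxidation, at 1.63-fold (1.23 to 2.15). Per1 had a level of 2.75 after dexamethasone and 3.48 after saline, a difference of -0.73, but its other probe lay on the opposite side and the mean over both probes was 0.28. The receptor gene itself, Nr3c1, had levels of 2.77 after dexamethasone and 3.01 after saline. Among 11 measured genes of corticosteroid receptors, their chaperones and steroid dehydrogenases, none was 2-fold apart (3.16% of all genes were). Nr3c2, the mineralocorticoid receptor, was 1.37-fold lower (1.04 to 1.81). The upstream sequence of Sgk1 is shown because it holds the response element that the receptor binds, next to a 24 h difference within the spot error. It is printed from RefSeq (GRCm38.p6, chr10:21993690-21993889, plus strand) with the motif in capitals.
Sgk1: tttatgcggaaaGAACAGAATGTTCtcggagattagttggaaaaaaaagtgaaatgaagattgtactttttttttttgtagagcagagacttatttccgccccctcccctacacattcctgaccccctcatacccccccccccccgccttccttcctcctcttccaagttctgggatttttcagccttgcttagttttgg
The motif searched on both strands of the 250 bases before each gene's start was the glucocorticoid response element, taken as GNACA and TGTNC with any 3 bases between them. It was found in 3 of the 24 matched targets (12.5%), which were Sgk1, Mt1 and Map3k6, and in 0.44% of all 27025 genes with a promoter in the table. A match describes letters and not binding.

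Circadian clock genes lay far apart between the 2 arrays. Of 19 measured clock genes, 7 were at least 2-fold lower (1.53% of all genes were) and 2 at least 2-fold higher (1.63%) after dexamethasone, 16 were below 0 (50.6%), and the median was -0.59, whereas the same genes had a median of 0.15 at 12 h. The molecular clock is a loop in which ARNTL and CLOCK bind E-boxes and drive the Per and Cry genes, whose proteins feed back on them, while DBP, TEF and HLF act on D-boxes against the repressor NFIL3. Per2, Per3, Ciart, Nr1d1 and Nr1d2 of the repressive arm and the D-box factors Dbp and Tef were lower after dexamethasone at 24 h, and the activator Arntl and the repressor Nfil3 were higher. For Cry1 (-0.43) and the repressor Bhlhe40 (-0.30) the spot-error range included equality.

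Dbp (probe at chr7:52965265-52965324 of mm9, plus strand) had a level of 2.09 on the 24 h dexamethasone array and 5.31 on the 24 h saline array, with 1.25 and 2.73 on the 12 h dexamethasone and saline arrays, 5.39 after noise alone and 3.16 at baseline. The saline and noise-only arrays were the high ones for this gene, and the 24 h dexamethasone array was 9.31-fold below saline (spot-error range 7.06 to 12.3). Per2, a core repressor of the loop, had -0.98 after dexamethasone and 1.36 after saline at 24 h, -0.60 and -1.30 at 12 h, 1.24 after noise alone and -0.96 at baseline. It was 5.05-fold lower at 24 h (3.82 to 6.67), and its 12 h difference of 0.70 lay on the other side of 0. Per3 had -1.07 after dexamethasone and 0.97 after saline at 24 h, -1.40 and -0.77 at 12 h, 0.59 after noise alone and -0.65 at baseline. Its 24 h difference was 4.09-fold lower (3.10 to 5.41), and both of its other probes were also lower. Ciart, a repressor of ARNTL and CLOCK, had -4.08 after dexamethasone and -1.57 after saline at 24 h, -4.58 and -4.25 at 12 h, -1.60 after noise alone and -3.68 at baseline, which made it 5.69-fold lower at 24 h (4.02 to 8.06), and its other probe differed by -0.96 on the log2 scale.

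The remaining clock genes were chosen for mention after their values were seen. Nr1d1 and Nr1d2, the REV-ERB repressors of Arntl, were 2.40-fold (1.82 to 3.18) and 2.21-fold (1.67 to 2.91) lower, and Tef was 2.38-fold lower (1.81 to 3.15) with all 3 of its other probes on the same side. Arntl (probe at chr7:120456978-120457037 of mm9, plus strand) had -0.07 after dexamethasone and -2.07 after saline at 24 h, 0.53 and 0.15 at 12 h, -1.32 after noise alone and -0.47 at baseline. It was thus 4.02-fold higher at 24 h (3.02 to 5.34), with the saline and noise-only arrays as the low ones. Nfil3 had 0.95 after dexamethasone and -0.34 after saline at 24 h, 1.69 and 1.01 at 12 h, 0.03 after noise alone and 0.22 at baseline, a 2.45-fold higher level at 24 h (1.85 to 3.23). Clock itself was 1.52-fold higher (1.15 to 2.01). Npas2, a partner of ARNTL, was well above background after dexamethasone only and at least 1.59-fold higher. Against baseline, the list median was 0.01 on the 24 h dexamethasone array, 0.81 on the 24 h saline array and 0.94 on the noise-only array, with -0.22 on the 12 h dexamethasone array and -0.28 on the 12 h saline array.

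**Figure D2:**
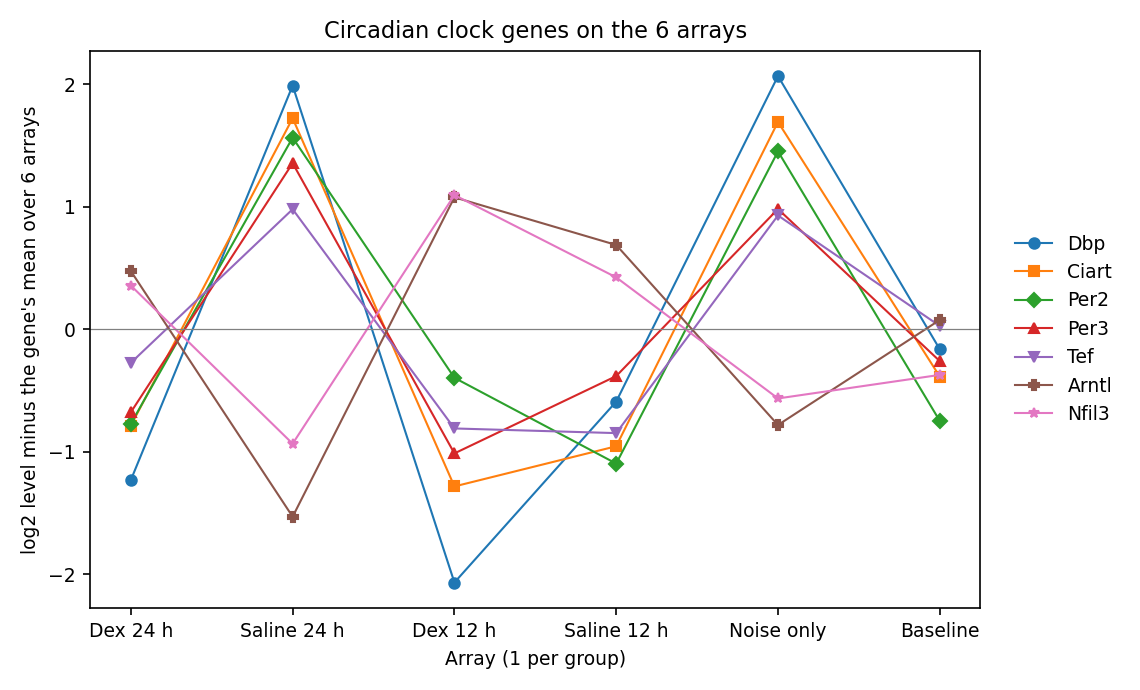
Log2 level of 7 clock genes on each of the 6 arrays (x axis, 1 array per group), minus the gene's mean over the 6 arrays (y axis). Lines join the points of 1 gene and stand for no order of the arrays. Dbp, Ciart, Per2, Per3 and Tef are high on the 24 h saline and noise-only arrays, where Arntl and Nfil3 are low, and the 24 h dexamethasone array lies apart from both for all 7.

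Promoter windows of 3 of these genes are shown because they carry the elements through which the loop is known to act. They are from RefSeq (GRCm38.p6), 5′ to 3′ on the gene's strand. The capitals mark the E-box CACGTG in Ciart (chr3:95882229-95882358, minus strand) and Tef (chr15:81802523-81802672, plus strand), and the D-box TTATGNAA in Per3 (chr4:151044666-151044875, minus strand).
Ciart: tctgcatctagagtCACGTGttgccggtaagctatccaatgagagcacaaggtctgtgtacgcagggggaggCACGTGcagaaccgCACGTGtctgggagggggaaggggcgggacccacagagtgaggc
Tef: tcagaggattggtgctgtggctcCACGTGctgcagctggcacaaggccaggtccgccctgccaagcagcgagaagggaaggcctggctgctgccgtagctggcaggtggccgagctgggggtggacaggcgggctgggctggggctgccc
Per3: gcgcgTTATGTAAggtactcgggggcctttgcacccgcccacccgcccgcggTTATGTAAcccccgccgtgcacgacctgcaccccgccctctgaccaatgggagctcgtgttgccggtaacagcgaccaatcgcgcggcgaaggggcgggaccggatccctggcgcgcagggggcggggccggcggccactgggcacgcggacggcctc
Searched on both strands of the 250 bases before the start, the E-box was present in 5 of 17 matched clock genes (29.4%) and in 6.86% of all genes in the table. The D-box was present in 2 of the 17 (11.8%), which were Per1 and Per3, and in 3.63% of all genes. The 5 genes with an E-box were Ciart, Tef, Bhlhe41, Cry1 and Per1. Cry1 was 1.34-fold lower with a spot-error range that included equality, and the probes of Per1 disagreed. Per3 held no E-box in the searched bases and differed by -2.03 on the log2 scale. Whether the motif goes with the size of a difference was not tested.

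Interferon response genes were lower after dexamethasone. All 35 listed genes were measured, 33 lay below 0 (50.6% of all genes did), 7 were at least 2-fold lower (1.53%), none was 2-fold higher and 27 were lower beyond the spot error (9.5% of all genes were). The list median was -0.68, close to the -0.66 of the same genes at 12 h, when 35 of 35 were below 0 (51.7% of all genes were). Interferons signal through transcription factors that bind the interferon-stimulated response element and switch on antiviral genes. The list median stood above baseline on every other array, at 0.68 on the 24 h dexamethasone array and 1.28 on the 24 h saline array, 0.21 and 0.90 on the 12 h dexamethasone and saline arrays, and 1.17 on the noise-only array.

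Mx1, an antiviral GTPase (probe at chr16:97668644-97668703 of mm9, minus strand), had a level of -1.1 on the 24 h dexamethasone array and 0.55 on the 24 h saline array, with -1.51 and -0.53 on the 12 h dexamethasone and saline arrays, 0.56 after noise alone and -2.13 at baseline. It was 3.14-fold lower at 24 h (2.38 to 4.15), yet above baseline on both 24 h arrays. Ifit3, which binds and modulates antiviral signalling complexes, had 2.69 after dexamethasone and 4.07 after saline at 24 h, 2.08 and 2.67 at 12 h, 4.01 after noise alone and 0.72 at baseline. Its 24 h level was 2.60-fold lower (1.97 to 3.44). Ifi44 was 3.04-fold lower (2.29 to 4.03; other probe -0.85 on the log2 scale), and Zbp1, a sensor of nucleic acids that can trigger necroptosis, was 2.59-fold lower (1.96 to 3.43). The other 3 genes at least 2-fold lower, seen once the values were known, were Irf7, the regulator that amplifies the response, at 2.23-fold (1.69 to 2.94), Ifit1 at 2.25-fold (1.71 to 2.97) and Oas3 at 2.04-fold (1.42 to 2.91). The signalling components Stat2 and Irf9 differed less, by -0.45 and -0.27. Gbp2 (0.43) and Gbp7 (0.04) were the 2 genes above 0, and Gbp2 had been at -0.94 at 12 h.

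The upstream sequences of 3 interferon genes are shown because the response element is repeated in each. They are from RefSeq (GRCm38.p6), with matches to the element, taken as GAAA, any 2 bases and GAAA on either strand, in capitals, for Ifit3 (chr19:34583369-34583528, plus strand), Ifit1 (chr19:34640769-34640888, plus strand) and Isg15 (chr4:156200819-156200938, minus strand), where 3 matches overlap.
Ifit3: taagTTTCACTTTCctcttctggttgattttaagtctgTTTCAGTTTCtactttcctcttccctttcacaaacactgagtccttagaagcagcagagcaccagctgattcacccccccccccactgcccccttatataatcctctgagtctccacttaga
Ifit1: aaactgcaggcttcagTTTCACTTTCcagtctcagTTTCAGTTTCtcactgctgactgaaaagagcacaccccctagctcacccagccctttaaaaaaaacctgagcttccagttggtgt
Isg15: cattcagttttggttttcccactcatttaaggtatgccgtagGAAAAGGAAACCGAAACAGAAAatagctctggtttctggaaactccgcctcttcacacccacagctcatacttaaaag
The motif was found in 14 of 24 matched interferon genes (58.3%) and in 936 of all 27025 genes (3.46%). Isg15, the ubiquitin-like modifier, had 2.40 after dexamethasone and 3.21 after saline at 24 h, a 1.76-fold lower level (1.33 to 2.32). Gbp2 and Gbp7 also held the motif while their differences were above 0.

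Chemokines went in both directions. Of 23 measured cytokine and chemokine genes, 2 lay at least 2-fold above saline (1.63% of all genes did) and 2 at least 2-fold below it (1.53%), and the median was -0.05. Ccl2, which attracts monocytes, had levels of 2.21 on the 24 h dexamethasone array and 0.64 on the 24 h saline array, 1.87 and 1.75 on the 12 h dexamethasone and saline arrays, 1.32 after noise alone and -1.83 at baseline, so that it was 2.98-fold higher at 24 h (2.25 to 3.93). Ccl7, a related monocyte attractant, was 2.63-fold higher (1.99 to 3.47). Cxcl10, an interferon-induced attractant of T cells, was 2.28-fold lower (1.73 to 3.01) while its other probe differed by -0.15, and Ccl8 was 2.93-fold lower (2.21 to 3.87). Il1b (-0.15) and Tnf (0.06) stood near equality, and these 2 were named after their values were seen. Tnfrsf12a, the receptor for TWEAK, was 2.82-fold higher (2.13 to 3.72), and it led 17 measured adhesion and NF-kB feedback genes whose median was 0.01. Antigen presentation genes had a median of -0.24 at 24 h and -0.89 at 12 h. None of the 19 was 2-fold apart at 24 h (3.16% of all genes were).

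Several stress response genes were higher after dexamethasone. Gdf15, a cytokine of the TGF-beta family released by stressed cells, had 2.43 after dexamethasone and -0.36 after saline at 24 h, 1.80 and 1.29 at 12 h, -0.10 after noise alone and -2.39 at baseline. The 24 h difference was 6.93-fold (5.25 to 9.14), and the 24 h dexamethasone array was the highest of the 6. Hmox1, which degrades haem, had 0.55 after dexamethasone and -1.61 after saline at 24 h, -0.87 and -0.77 at 12 h, -1.79 after noise alone and 2.14 at baseline, a 4.48-fold difference at 24 h (3.38 to 5.92) although baseline was higher still. The other 21 antioxidant genes were within 2-fold, and the list median was -0.06. All 20 heat shock and protein folding genes were above 0 (49.4% of all genes were) with a median of 0.29. Beyond the spot error, 6 were higher (8.7% of all genes were) and none was lower (9.5%). None of the 20 was at least 2-fold higher (1.63% of all genes were). The largest of these were Hspa1b, an inducible HSP70, at 1.68-fold (1.27 to 2.21) and Hspb8 at 1.67-fold (1.26 to 2.20). Among 23 immediate early genes, 4 were at least 2-fold higher (1.63% of all genes were) and none 2-fold lower, with Fosl1 at 3.04-fold (1.91 to 4.85), Fosb at 2.55-fold (1.86 to 3.50), Arc at 2.10-fold (1.59 to 2.77) and Maff at 2.09-fold (1.58 to 2.76). The median of these 23 genes was 0.18. Of them 7 were below 0, with 3 lower beyond the spot error (9.5% of all genes were), and 6 were higher beyond it (8.7%). Serpina3n, an acute phase protease inhibitor, was 2.46-fold higher (1.81 to 3.33), and its 12 h difference was 2.53 on the log2 scale. Of 19 apoptosis regulators none was 2-fold apart (3.16% of all genes were). Bax, a promoter of mitochondrial cell death, was higher by 0.59 on the log2 scale (spot-error range of the fold 1.14 to 1.99).

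Lipid genes were higher after dexamethasone at 24 h. Of 20 sterol and fatty acid synthesis genes, 18 were above 0 (49.4% of all genes were), 16 were higher beyond the spot error (8.7%), 2 were at least 2-fold higher (1.63%) and none 2-fold lower, with a median of 0.63 against 0.18 at 12 h. Fasn, the fatty acid synthase, had 6.42 after dexamethasone and 5.24 after saline at 24 h, 5.65 and 4.83 at 12 h, 6.29 after noise alone and 5.30 at baseline, a 2.26-fold higher level (1.71 to 2.98). Scd1, which desaturates fatty acids, was 2.12-fold higher (1.61 to 2.80), Acaca, the first step of fatty acid synthesis, 1.94-fold (1.47 to 2.56) with all 5 of its other probes also higher, and Dhcr7, a late enzyme of cholesterol synthesis, 1.90-fold (1.44 to 2.51). Srebf1 and Insig1 were the 2 genes below 0, at -0.36 and -0.21.

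Adipocyte and lipid droplet genes showed the same side more strongly, with 17 of 19 higher beyond the spot error (8.7% of all genes were), 7 at least 2-fold higher (1.63%) and a median of 0.91 against 0.48 at 12 h. Ucp1, the uncoupling protein that marks brown fat, had 3.92 after dexamethasone and 1.58 after saline at 24 h, 1.97 and 1.06 at 12 h, 2.10 after noise alone and 2.85 at baseline, which made it 5.08-fold higher (3.85 to 6.71) and highest on the 24 h dexamethasone array. Plin1, the coat protein of fat droplets, was 3.75-fold higher (2.83 to 4.95; other probe 0.88 on the log2 scale), Cidea, which enlarges droplets and is abundant in brown fat, 3.56-fold (2.70 to 4.70), and Plin5 3.07-fold (2.32 to 4.05). Summed over the list, the signal in multiples of the 75th percentile was 178 on the 24 h dexamethasone array and 78.6 on the 24 h saline array, 106 and 69.8 on the 12 h dexamethasone and saline arrays, 113 on the noise-only array and 109 at baseline. The amount of fat dissected with the cochlea and the amount of these transcripts per fat cell cannot be told apart here.

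Genes of dividing cells and of blood-forming cells were lower after dexamethasone. All 29 measured proliferation genes were below 0 (50.6% of all genes were) and all 29 beyond the spot error (9.5%), 9 were at least 2-fold lower (1.53%), and the median was -0.93, against -0.75 at 12 h. Mki67, the marker of cycling cells (probe at chr7:142881591-142881650 of mm9, minus strand), had 2.27 after dexamethasone and 3.50 after saline at 24 h, 2.85 and 3.59 at 12 h, 2.54 after noise alone and 3.57 at baseline. It was 2.36-fold lower at 24 h (1.79 to 3.11), and both dexamethasone arrays and the noise-only array were the low ones. Rrm2, the ribonucleotide reductase subunit that supplies DNA precursors, was 2.60-fold lower (1.97 to 3.44), and Bub1 and Nusap1, which act on the mitotic spindle, were both 2.20-fold lower (1.62 to 2.98 and 1.67 to 2.91). Against baseline, the list median was -0.93 on the 24 h dexamethasone array and -0.02 on the 24 h saline array, -0.56 and 0.21 on the 12 h dexamethasone and saline arrays, and -0.83 on the noise-only array.

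Erythroid genes had a median of -1.04, with 12 of 22 at least 2-fold lower (1.53% of all genes were) and none 2-fold higher. Ahsp, the chaperone of alpha globin, had 3.22 after dexamethasone and 4.59 after saline at 24 h, 3.89 and 5.16 at 12 h, 3.45 after noise alone and 4.55 at baseline, and was 2.58-fold lower at 24 h (1.96 to 3.40). Klf1, the erythroid transcription factor, was 2.47-fold lower (1.87 to 3.27) and Slc4a1, the red cell anion exchanger, 2.42-fold lower (1.83 to 3.19). Hba-a1, an alpha globin gene named after its value was seen, was level at 8.32 after dexamethasone and 8.33 after saline.

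Eosinophil granule genes had a median of -1.14 at 24 h and -2.55 at 12 h, and 6 of the 10 measured at 24 h were at least 2-fold lower, against 1.53% of all genes. Epx, the eosinophil peroxidase, had -1.81 after dexamethasone and -0.34 after saline at 24 h, -0.96 and 1.77 at 12 h, -2.37 after noise alone and -0.25 at baseline. It was 2.77-fold lower at 24 h (2.10 to 3.67), while the 12 h saline array was far above all others. Prg2, the granule major basic protein, was 2.78-fold lower (2.11 to 3.67) and Il5ra, the receptor for the eosinophil growth factor, 3.70-fold lower (2.58 to 5.31). Neutrophil and precursor genes had a median of -0.45, with 2 of 21 at least 2-fold lower (1.53% of all genes were), namely Ms4a3 at 2.08-fold (1.58 to 2.75) and Ctsg at 2.03-fold (1.54 to 2.68). Medians were -0.61 for megakaryocyte and platelet genes, -0.26 for B cell genes, -0.36 for T and NK cell genes and -0.37 for macrophage and monocyte genes. Trem2, a receptor of tissue macrophages, was 2.78-fold lower (2.11 to 3.67). Mast cell genes went the other way in part, with Cma1 2.14-fold higher (1.61 to 2.84) and a list median of -0.13. Bone-forming cell genes, which mark the bone around the marrow, had a median of -0.00, and how far marrow cells carry the values of the proliferation genes was not tested.

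**Figure D3:**
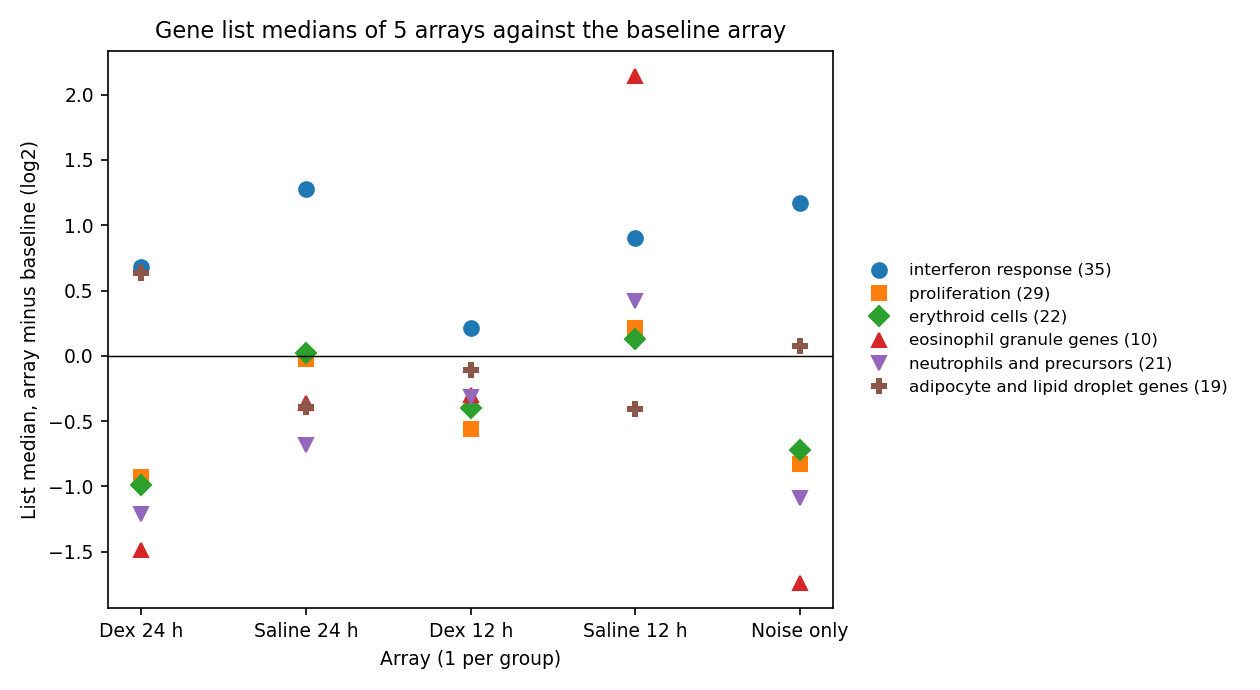
Median log2 difference from the baseline array (y axis) of 6 gene lists on the other 5 arrays (x axis, 1 array per group), with the number of members in brackets. Proliferation and erythroid medians are near 0 on the 24 h saline array and at -0.93 and -0.99 on the 24 h dexamethasone array, and the interferon median is 0.68 after dexamethasone and 1.28 after saline at 24 h. All 5 arrays share the baseline array as reference.

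Genes of the cochlear epithelium and lateral wall were slightly lower after dexamethasone. The 16 measured spiral ligament fibrocyte genes had a median of -0.60, with 13 lower beyond the spot error, against 9.5% of all genes. Slc4a11, a membrane transporter of fibrocytes whose loss causes hearing loss and corneal disease, had 3.81 after dexamethasone and 5.63 after saline at 24 h, 3.75 and 4.33 at 12 h, 5.36 after noise alone and 5.21 at baseline. It was 3.53-fold lower at 24 h (2.67 to 4.66), and both dexamethasone arrays were the lowest of the 6. S100b was 1.99-fold lower (1.51 to 2.63), Tbx18, a transcription factor needed for otic fibrocytes, 1.90-fold (1.44 to 2.50), and Gjb2, the connexin 26 gene often mutated in deafness, 1.85-fold (1.41 to 2.45). In the stria vascularis, which makes the endocochlear potential, 24 genes had a median of -0.37, and the pigment cell genes Mlana at 2.02-fold (1.53 to 2.66) and Dct at 2.01-fold (1.52 to 2.65) were the 2 at least 2-fold lower, against 1.53% of all genes. Slc26a4, the anion exchanger pendrin, was 1.68-fold lower (1.27 to 2.22).

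Hair cell genes had a median of -0.18. Of 24 measured, none was 2-fold apart (3.16% of all genes were) and 18 were below 0 (50.6%). Beyond the spot error, 5 were lower (9.5% of all genes were) and 1 was higher (8.7%). Ocm, the calcium buffer oncomodulin of outer hair cells, had 2.56 after dexamethasone and 3.16 after saline at 24 h, 2.44 and 2.63 at 12 h, 3.00 after noise alone and 2.42 at baseline, a 1.51-fold lower level (1.15 to 2.00). Gfi1, a hair cell transcription factor, was 1.46-fold lower (1.1 to 1.92), and Pcdh15, of the tip link, was 1.56-fold lower (1.15 to 2.12). Supporting cell and tectorial membrane genes had a median of -0.30. Hes5, a Notch target, stood out from them at 2.83-fold higher (2.12 to 3.76), with -0.97 after dexamethasone and -2.47 after saline. Endothelial and pericyte genes had a median of -0.02.

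Genes of sensory and sympathetic neurons were higher after dexamethasone. For spiral ganglion neuron genes the median was 0.41, with 23 of 28 above 0 (49.4% of all genes were) and 5 at least 2-fold higher (1.63%). The 5 include Th, which is also on the catecholamine list, and Prph, which is also on the sensory ganglion list. Prph, a filament protein of small sensory and autonomic neurons as well as type II spiral ganglion neurons, was 5.68-fold higher (4.31 to 7.50). Gap43, a growth cone protein, was 3.86-fold higher (2.92 to 5.09) and Kcna2 2.25-fold (1.70 to 2.97). By contrast Nefl (0.42) and Nefh (0.19), the neurofilaments of large myelinated neurons, were named after their values were seen and stayed within 2-fold. Synaptic genes had a median of 0.22, and 4 of 27 were higher beyond the spot error (8.7% of all genes were). Schwann cell and myelin genes had a median of 0.30, with Mag, a myelin adhesion protein, 1.66-fold higher (1.25 to 2.19; other probe 0.20 on the log2 scale).

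The sensory ganglion and nociceptor list, whose genes mark pain and touch neurons of cranial and spinal ganglia, had a median of 1.53 at 24 h and 1.29 at 12 h, with 14 of 18 measured genes at least 2-fold higher, against 1.63% of all genes. Scn10a, the nociceptor sodium channel Nav1.8 (probe at chr9:119517585-119517644 of mm9, minus strand), had 2.06 after dexamethasone and -0.74 after saline at 24 h, 0.90 and -1.75 at 12 h, 1.16 after noise alone and 1.37 at baseline. It was 6.97-fold higher at 24 h (5.28 to 9.21), and both saline arrays were the low ones. Scn11a, the related channel Nav1.9, was 5.80-fold higher (4.39 to 7.66). The summed signal of the list was 47.2 on the 24 h dexamethasone array and 13.5 on the 24 h saline array, 24.6 and 9.83 on the 12 h dexamethasone and saline arrays, 26.2 on the noise-only array and 35.2 at baseline. The list median against baseline was 0.37 on the 24 h dexamethasone array and -1.33 on the 24 h saline array.

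Catecholamine and sympathetic neuron genes, which mark neurons that make noradrenaline, were separated further. All 14 were well above background on the 24 h dexamethasone array and 10 on the 24 h saline array, and the median of those 10 was 1.93. Dbh, the enzyme that makes noradrenaline, had 3.26 after dexamethasone and was not well above background after saline at 24 h, so it was at least 338-fold higher. It had -2.96 and -5.35 on the 12 h dexamethasone and saline arrays, -3.42 after noise alone and 3.11 at baseline, so the 24 h dexamethasone and baseline arrays were alike and the other 4 far lower. Slc6a2, the noradrenaline transporter, was at least 91.9-fold higher and Phox2a, a transcription factor of noradrenergic neurons, at least 26.2-fold higher, and these bounds were named after their values were seen. Ddc was 9.91-fold higher (7.50 to 13.1), and Th, the first enzyme of catecholamine synthesis, 8.98-fold (6.80 to 11.8). Th had 2.98 after dexamethasone and -0.18 after saline at 24 h, 0.39 and -0.03 at 12 h, 1.21 after noise alone and 2.79 at baseline.

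Pomc and Prl of the pituitary list and Ttr of the choroid plexus list gave the largest differences among brighter genes measured on both arrays. Pomc, the precursor of ACTH (probe at chr12:3960413-3960472 of mm9, plus strand), had 5.07 after dexamethasone and -1.86 after saline at 24 h, 0.47 and 1.60 at 12 h, -1.55 after noise alone and 0.64 at baseline. It was 122-fold higher at 24 h (91.9 to 162), and lower after dexamethasone at 12 h. Prl, prolactin, was 70.1-fold higher (53.1 to 92.6), with 5.22 after dexamethasone and -0.91 after saline at 24 h, 3.78 and 4.87 at 12 h, 0.67 after noise alone and 3.37 at baseline. Gh, growth hormone, was 78.3-fold higher (52.0 to 118), and Cga, the common subunit of the glycoprotein hormones, at least 25.1-fold higher. Pou1f1 and Tbx19, transcription factors that define pituitary cells, were not well above background on either 24 h array, and Lhb, a gonadotropin subunit, differed by -0.02. The pituitary list median of 6.13 rests on the 5 of 12 genes measured on both arrays, and over all 12 without the filter on dim probes it was 0.52. The summed pituitary signal was 16.9 and 34.5 on the 12 h dexamethasone and saline arrays, 2.54 on the noise-only array and 13.5 at baseline, so it varied between arrays with no common order by treatment.

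Ttr, transthyretin, the main secreted protein of the choroid plexus, had 5.01 after dexamethasone and 0.12 after saline at 24 h, 0.01 and -0.21 at 12 h, -0.37 after noise alone and 5.04 at baseline. It was 29.8-fold higher at 24 h (22.6 to 39.3), and the 24 h dexamethasone and baseline arrays stood apart from the other 4. Prlr was 8.78-fold higher (5.57 to 13.8) while its other probe differed by 0.60 on the log2 scale, Folr1 5.73-fold (4.29 to 7.67) and Slc4a5 4.94-fold (3.29 to 7.42). The choroid plexus list median was 0.42, with 5 of 14 at least 2-fold higher (1.63% of all genes were), and it was 0.044 over the 9 genes of at least median signal.

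**Figure D4:**
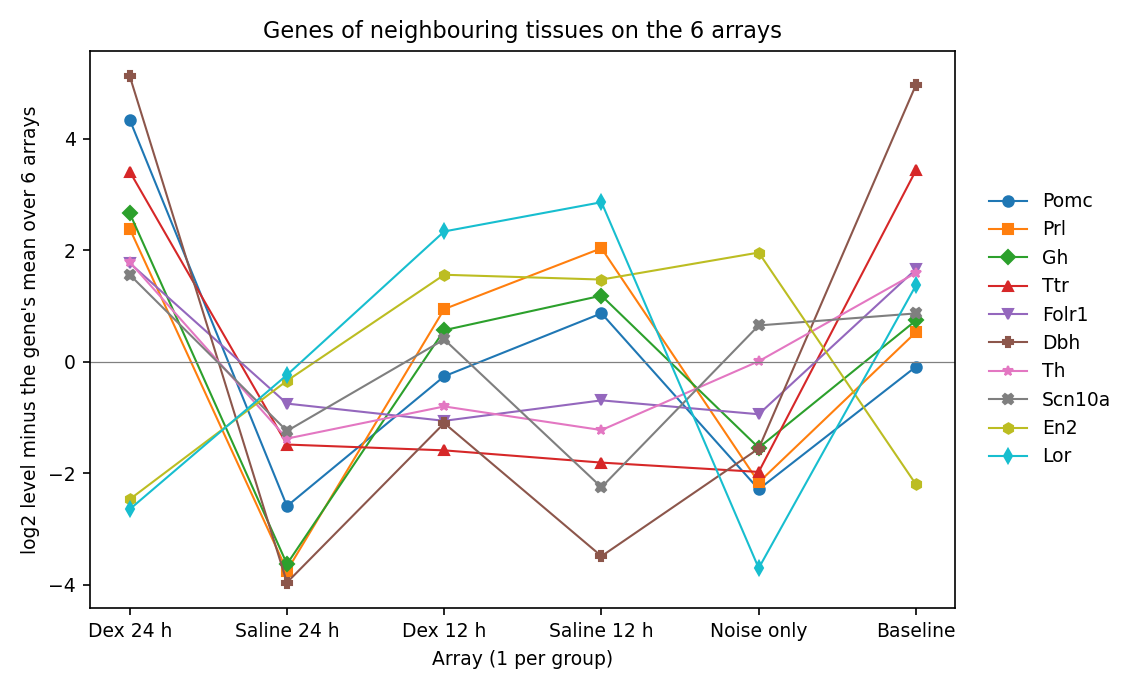
Log2 level of 10 genes of the pituitary, choroid plexus, catecholamine, sensory ganglion, cerebellar and epidermal lists on each of the 6 arrays (x axis, 1 array per group), minus the gene's mean over the 6 arrays (y axis), including levels not well above background. Lines join the points of 1 gene and stand for no order. The 24 h dexamethasone array is high for Pomc, Prl, Gh, Ttr, Folr1, Dbh, Th and Scn10a and low for En2 and Lor, and the baseline array resembles it for Ttr, Folr1, Dbh and Th.

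Skeletal muscle, cerebellar and epidermal list medians were lower after dexamethasone. All 24 measured skeletal muscle genes were below 0 (50.6% of all genes were), 3 were at least 2-fold lower (1.53%) and the median was -0.63. Myh7, the slow myosin heavy chain, had -0.89 after dexamethasone and 1.62 after saline at 24 h, 1.23 and 2.84 at 12 h, -0.91 after noise alone and -1.23 at baseline, and was 5.71-fold lower at 24 h (4.32 to 7.54). Tcap, a sarcomere protein, was 3.13-fold lower (2.37 to 4.13), and Actn3 of fast fibres 2.77-fold (2.10 to 3.66). Trim63 and Fbxo32, ubiquitin ligases that glucocorticoids induce in wasting muscle, were 1.71-fold (1.28 to 2.28) and 1.45-fold (1.1 to 1.91) lower. The other probe of Trim63 differed by -0.04 on the log2 scale. Cerebellar genes had a median of -0.82, with 7 of 16 at least 2-fold lower (1.53% of all genes were), among them En2 at 4.37-fold (3.26 to 5.84) and Pcp2 of Purkinje cells at 2.94-fold (2.23 to 3.89). The cerebellar median was -0.51 over the 8 genes of at least median signal. The summed cerebellar signal was 39.8 on the 24 h dexamethasone array and 51.2 on the 24 h saline array, below the 116 and 106 of the 12 h dexamethasone and saline arrays and the 146 of the noise-only array. Epidermal genes had a median of -0.72, with Krtdap 6.03-fold lower (4.54 to 8.01) and Lor, the cornified envelope protein loricrin, 5.31-fold lower (4.01 to 7.03). Among mucosal gland genes, Dmbt1 was 8.21-fold higher (6.18 to 10.9) and Bpifb1 6.30-fold higher (4.77 to 8.31), and the list median was 0.08. Bpifb1 had 2.56 after dexamethasone and -0.10 after saline at 24 h, while it reached 8.17 and 7.94 on the 12 h dexamethasone and saline arrays.

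The 12 h comparison uses other arrays on another slide and so shares no array with the 24 h comparison. Across 22496 genes measured at both times the differences had a Pearson correlation of 0.36 and a Spearman correlation of 0.36, given as a description across genes, which are not replicates. Of 351 genes at least 2-fold higher at 24 h and measured at 12 h, 61 (17.4%) were also at least 2-fold higher at 12 h, against 1.7% of all 24178 genes measured at 12 h. These 61 are 22.4% of the 272 genes that were 2-fold higher at 12 h and measured at 24 h. Of 332 genes at least 2-fold lower at 24 h and measured at 12 h, 71 (21.4%) were so at 12 h, against 1.81% of all genes measured at 12 h. These 71 are 19.5% of the 365 genes that were 2-fold lower at 12 h and measured at 24 h. Proliferation (-0.93 at 24 h and -0.75 at 12 h), interferon (-0.68 and -0.66), eosinophil (-1.14 and -2.55) and sensory ganglion medians (1.53 and 1.29) stood on the same side at both times. Clock (-0.59 and 0.15), oxidative phosphorylation (0.12 and -0.16), and pituitary medians (6.13 over 5 genes and -0.62 over 7) did not. The differences between the times were not tested.

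**Figure D5:**
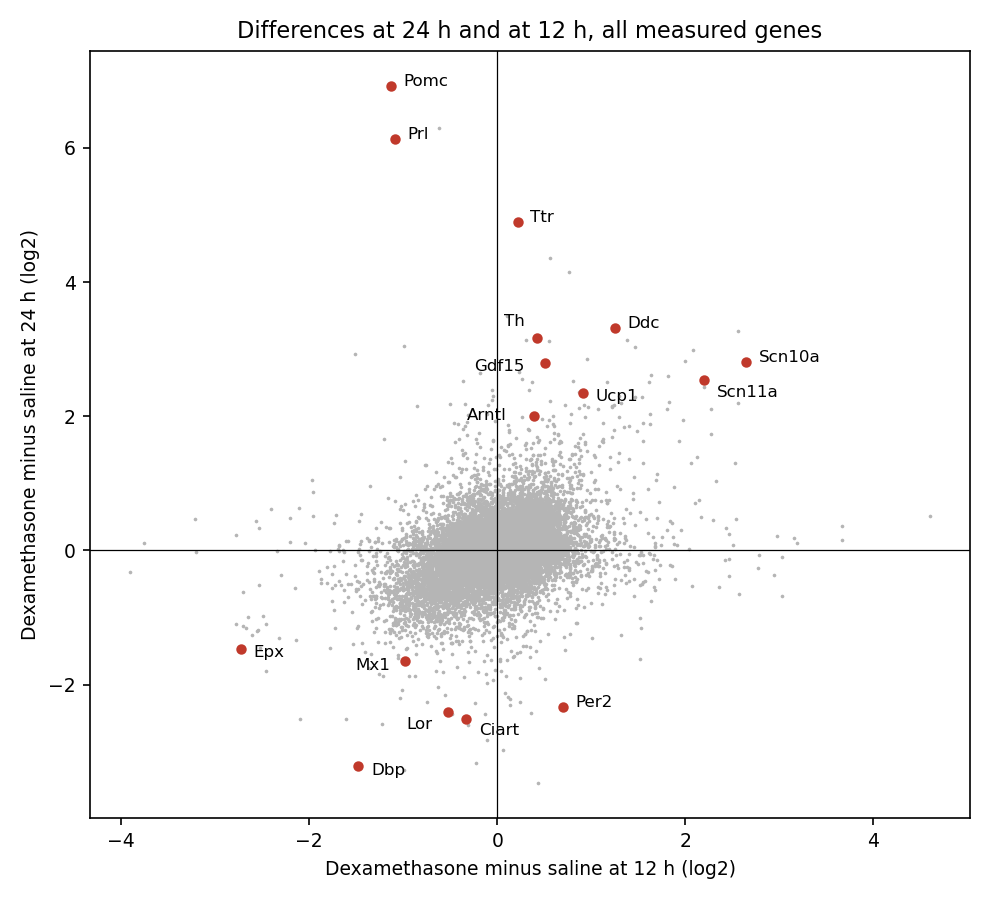
Log2 difference between dexamethasone and saline at 24 h (y axis) against that at 12 h (x axis) for 22496 genes measured at both times, with 16 genes named in red. Scn10a and Scn11a lie high on both axes, Dbp, Mx1 and Epx lie low on both, and Pomc, Prl and Per2 lie on opposite sides of 0 at the 2 times.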

How the data were processed

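Total RNA of mouse cochlea was labelled with Cy3 and hybridised, 1 array per group, to Agilent one-colour arrays. Per the file headers, the deposited scanner files hold intensity values that the authors extracted with Agilent Feature Extraction 10.10.1.1, background-subtracted and not normalized between arrays. They also hold the software's error per spot, which rests on a preset multiplicative error of 10%. The deposited series matrix holds log2 values that equalled the log2 processed intensity minus a constant per array for 100% of probes within 0.01, and its column medians were -2.91 for dexamethasone 24 h, -2.94 for saline 24 h, -2.82 and -2.86 for dexamethasone and saline at 12 h, -2.99 for noise only and -2.96 for baseline. Scale and direction are thus known, and any centring beyond that constant is not.

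Here log2 of the processed signal was used after the 75th percentile of an array's 59305 non-control spots had been subtracted, with outlier spots (69 to 102 per array) left out and spots of a probe averaged. No spot was saturated. A gene was represented by its brightest probe (mean over the 6 arrays). Of 56605 probes, 32989 were named through their accession in RefSeq (GRCm38.p6), 23616 kept the file's gene name, and 16 of all were left out. Probe positions are those of mm9 per the file headers, and promoters come from the RefSeq table. A probe not well above background on 1 array gives a lower bound of the fold, against the higher of its own signal and the lowest signal among probes well above background. No statistical test was possible with 1 array per group, so a log2 fold (ratio) is given with the spot-error range only. Precision is limited by the number of arrays. The method was tested on simulated data whose only noise was the spread of repeat spots, 0.036 and 0.035 on the log2 scale for the 24 h arrays. The real differences had a standard deviation of 0.42, and mice and dissections were not simulated. The simulation thus checks the calculation and not whether a 2-fold difference would recur.

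Members and gene lists (46 lists, 959 matched entries) were chosen with earlier results of these data known. Genes were named by rule, as the 12 highest and 12 lowest differences among genes of at least median signal, up to 4 members per list by size, and 7 glucocorticoid genes (Fkbp5, Tsc22d3, Per1, Zbtb16, Sgk1, Klf9 and Dusp1) whatever their value. Genes named outside the rule are said to be so, or are listed as values of a list. Alternatives were quantile normalization, normexp (offset 50) with quantile normalization, percentiles over detected probes, E1A spike-in scaling, the series matrix values, 3 filters or gene summaries, file gene names and thresholds of 1.5-fold and 3-fold. Python 3.11.15, pandas 2.3.3, numpy 2.4.6, matplotlib 3.10.9, R 4.3.3 and limma 3.58.1 were used.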

Additional observations from a re-analysis of the deposited data

Results flagged for a closer look

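For 22 genes of the lists or named by rule and for 1 list median the dexamethasone minus saline difference lay beyond the spot error in opposite directions at the 2 sampling times, on log2 scale. The difference between the times was not tested, with 1 array per group at each time. The pituitary genes were Pomc (6.93 at 24 h and -1.13 at 12 h), Prl (6.13 and -1.09) and Gh (6.29 and -0.62), and the median of the pituitary hormone genes was 6.13 at 24 h and -0.62 at 12 h. The clock genes Per2 and Cry2 were at -2.34 and -0.48 at 24 h, and at 0.70 and 0.42 at 12 h.

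Col1a1, the main collagen of bone, was at 0.42 at 24 h and -0.66 at 12 h. The mast cell proteases Cma1 and Mcpt4 were at 1.1 and 0.83 at 24 h, and at -0.45 and -0.86 at 12 h. Mag was at 0.73 at 24 h and -0.48 at 12 h, and its other probe was at 0.20 at 24 h. Neurod1, a transcription factor of cerebellar granule neurons, was at -1.75 at 24 h and 0.44 at 12 h, and Grin2a, an NMDA receptor subunit, at -0.82 and 0.86. Fbxo32 was at -0.54 at 24 h and 0.51 at 12 h.

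The inflammatory genes Cxcl9 and Gbp2, both induced by interferon gamma, were at 0.44 and 0.43 at 24 h, and at -2.57 and -0.94 at 12 h. The acute phase gene Saa3 was at -0.57 at 24 h and 1.1 at 12 h, and Cebpd, a transcription factor of the acute phase, at 0.54 and -0.43. Igll1, a gene of B cell precursors, was at 0.47 at 24 h and -3.22 at 12 h. Aqp5, a water channel of glands, was at -0.46 at 24 h and 1.4 at 12 h, and Ltf, lactoferrin, at -0.60 and 1.17. Car8, a gene of Purkinje cells, was at -1.2 at 24 h and 0.40 at 12 h, and Zic1, a cerebellar transcription factor, at -0.45 and 0.47. The collagen gene Col14a1 was at 0.49 at 24 h and -0.63 at 12 h.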

How the results depend on the processing

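Quantile normalization, a percentile taken over commonly detected probes, scaling on E1A spike-in probes, the series matrix values, the mean over a gene's probes and the file gene names kept all 49 counts and list medians within 1.5 times or within 1 spot error (0.205 on the log2 scale). Normexp with quantile normalization gave 201 genes at least 2-fold higher, 155 lower and 356 in either direction. Without the filter on dim probes these counts were 1443, 1370 and 2813, with a signal at or above the median 97, 94 and 191, at 1.5-fold 1191, 1329 and 2520, and at 3-fold 138, 68 and 206. Under the median-signal filter, list medians became -0.54 for supporting cell, 0.76 for catecholamine, -0.10 for T and NK cell, -0.51 for cerebellar, 0.044 for choroid plexus, 6.53 for pituitary hormone and -0.20 for mucosal gland genes. Under normexp they became 1.31 for sensory ganglion, 1.63 for catecholamine and 4.80 for pituitary hormone genes, and without the filter 2.14 for catecholamine and 0.52 for pituitary hormone genes. The filters changed the share of genes called as well as the number. Genes at least 2-fold apart were 191 of 11355 with a signal at or above the median and 718 of 22709 in the main setting. Without the filter on dim probes they were 2813 of 37317. The causes of these shifts, and of those under normexp, were not tested. Of 190 values of single genes, Per1 alone lay beyond the spot error and turned round, to 0.28 as the mean over probes, since its probes disagree. Differences inside the spot error were not checked for a change of side. Under normexp, 37 of the 190 values moved by more than their own spot error, and 19 did so as the mean over probes. The share of 2-fold calls that were higher ran between 50.6% and 56.5% over these scalings and filters. No paired analysis was possible because each group has 1 array, and no replicate could be left out. Genes near background have a bound at most, and treatment, mice and dissection cannot be told apart between the 2 arrays.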

Other observations

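Genes outside the lists were picked after their values were seen and are given as values. Further genes of lipid storage and brown fat were higher after dexamethasone at 24 h. Thrsp, a regulator of fat synthesis, had 4.22 after dexamethasone and 1.93 after saline, a 4.87-fold higher level (spot-error range 3.69 to 6.42), Gpd1 was 2.90-fold higher (2.20 to 3.83) and Agpat2, which makes phosphatidic acid, 2.32-fold (1.76 to 3.06). Adrb3, the beta-3 adrenergic receptor of fat cells, was 3.70-fold higher (2.79 to 4.90), and Dio2, which activates thyroid hormone, 2.26-fold (1.71 to 2.98). Among neuronal genes, Htr3a, a serotonin-gated channel, was 9.66-fold higher (7.25 to 12.9), and Cartpt, a neuropeptide precursor, 4.64-fold (3.50 to 6.15).

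The cold-inducible RNA-binding protein genes Cirbp and Rbm3 were both lower, with levels of 2.27 and 2.49 after dexamethasone and 3.42 and 3.49 after saline at 24 h, which is 2.21-fold (1.68 to 2.92) and 2.01-fold (1.52 to 2.65), but the other 3 probes of Rbm3 ran between -0.86 and 0.21 on the log2 scale. Among genes of dividing cells outside the list, Tk1 was 2.71-fold lower (2.05 to 3.58) and the linker histone gene H1f5 2.26-fold lower (1.71 to 2.98). Otor, a secreted protein of the inner ear, was 2.29-fold lower (1.73 to 3.02). Aass, an enzyme of lysine breakdown, was 2.99-fold lower (2.27 to 3.94).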
